A study of Mus musculus with 4 samples.

Results

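The genes described here belong to multicopy families with members known for transcription in the mouse 2-cell embryo. They comprise every entry of a genome-wide knockout screen whose name begins with Zscan4, Tdpoz and a digit, Usp17l, Obox and a digit, Pramef or Pramel. The rule gave 30 genes of the 20380 per the authors' deposited table: 5 Zscan4, 4 Tdpoz, 5 Usp17l, 5 Obox, 5 Pramef and 6 Pramel genes. They were chosen by name, under a rule set with earlier results of these data known, and their expression was not measured here. RefSeq gives 25 of them under the same symbol and the other 5, the Pramef genes, under newer Pramel names.

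At the 2-cell stage the mouse embryo switches on its own genome, and the endogenous retrovirus MERVL is transcribed together with several gene families that lie in tandem arrays. A rare population of cultured embryonic stem cells enters a like state, in which the transcription factor Dux switches on MERVL and many of these families, Zscan4 included. The arrays arose by duplication, so a guide RNA written for one copy can also match its neighbours.

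The screen compared 2 libraries of MERVL-positive cells with 2 libraries of total cells, which their titles call sequencing repeats. All came from the mouse embryonic stem cell line E14 carrying a MERVL-tdTomato reporter, transduced with a lentiviral CRISPR-Cas9 library. Both groups carried the reporter and the library of 130209 guides, and all cells had polybrene at 4 ug/mL during transduction and puromycin at 2 ug/mL for selection. The labels give no further treatment. Reporter-positive cells were sorted at day 5, about 500000 of them, or 3.84 for each guide of the library.

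Each gene has 1 log2 fold change between the groups, without a value per library, so depth is unknown and the spread between libraries cannot be given. No source used here states which group is the numerator. A positive value is taken to mean more guides in MERVL-positive cells, since the study's title ties loss of Ints7 to active MERVL and Ints7 stood at rank 157 for positive and 18586 for negative change per the authors' deposited table. That reading is likely but not settled, and with the other every direction below turns. Enrichment means more guides in MERVL-positive cells than in total cells, and depletion means fewer. Ranks run over all entries of the screen, microRNAs and non-targeting guides included, and not over the 20380 genes alone.

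Most knockouts of these families gave values near 0 per the authors' deposited table. The median log2 fold change was -0.045 over the 30 members and -0.021 over all genes, and 70.0% of members and 74.3% of genes lay within 0.5 of 0. Usp17l genes, which encode deubiquitinating enzymes, held all 3 members with an unadjusted depletion p under 0.05 per the authors' deposited table, with log2 fold changes of -1.89 (Usp17le), -0.92 (Usp17la) and 0.29 (Usp17lc). Obox2, of a family of oocyte and embryo homeobox factors, was the 1 member with an unadjusted enrichment p under 0.05 per the authors' deposited table, at 1.00. No member passed a false discovery rate of 0.05.

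Over all genes, 5.07% had an unadjusted depletion p under 0.05 and 5.02% an unadjusted enrichment p under 0.05 per the authors' deposited table. Of the 30 members 3 (10%) passed for depletion and 1 (3.33%) for enrichment, counts of a few genes on which no test was made. A guide counted for one copy may also cut its relatives, and guide sequences were not used here, so the value of each copy is uncertain in that respect. At the stricter limit of 0.01 the shares over all genes were 1.12% for depletion and 1.07% for enrichment, and the members past it were Usp17le and Obox2. The false discovery rate at 0.05 called, by the authors' deposited table, 0.00491% of genes for depletion and 0% for enrichment.

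The copies of the Zscan4 and Usp17l families are shown first by their promoters, the 250 bases before the RefSeq start of each gene. These windows describe how alike the copies are, and whether likeness limits the guides particular to a copy was not tested. Where the guides cut was not checked, since their sequences were not used here. All windows come from RefSeq on GRCm38.p6 and run 5′ to 3′ on the gene's strand. Capitals mark bases that differ from the Zscan4c window in the aligned stretch, and bases beyond that stretch stay in lower case. Zscan4c lies at chr7:11005495-11005744 on the plus strand, Zscan4f at chr7:11397665-11397914 on the plus strand, Zscan4d at chr7:11166149-11166398 on the minus strand and Zscan4b at chr7:10905051-10905300 on the minus strand.
Zscan4c: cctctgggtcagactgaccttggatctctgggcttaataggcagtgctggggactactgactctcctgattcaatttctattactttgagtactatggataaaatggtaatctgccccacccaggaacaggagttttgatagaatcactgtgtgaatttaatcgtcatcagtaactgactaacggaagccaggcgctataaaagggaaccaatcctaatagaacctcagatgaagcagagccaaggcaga
Zscan4f: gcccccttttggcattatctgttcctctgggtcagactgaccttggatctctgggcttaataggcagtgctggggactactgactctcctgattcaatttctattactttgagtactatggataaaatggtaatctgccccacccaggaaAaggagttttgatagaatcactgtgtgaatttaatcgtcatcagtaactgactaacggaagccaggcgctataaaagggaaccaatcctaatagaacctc
Zscan4d: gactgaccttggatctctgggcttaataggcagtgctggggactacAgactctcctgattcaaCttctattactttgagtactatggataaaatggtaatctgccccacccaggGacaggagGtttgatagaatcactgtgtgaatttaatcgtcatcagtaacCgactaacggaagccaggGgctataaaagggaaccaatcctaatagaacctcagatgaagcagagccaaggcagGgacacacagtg
Zscan4b: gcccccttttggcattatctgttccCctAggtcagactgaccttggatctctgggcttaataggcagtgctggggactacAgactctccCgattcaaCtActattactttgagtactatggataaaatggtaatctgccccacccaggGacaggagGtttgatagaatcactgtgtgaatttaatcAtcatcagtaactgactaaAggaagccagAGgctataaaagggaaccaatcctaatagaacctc

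The Zscan4f window had 1 mismatch to that of Zscan4c over 227 aligned positions, the Zscan4d window 7 over 239 and the Zscan4b window 12 over 227, all without a gap. The windows are shifted against each other, because the annotated starts do not fall at the same base of the shared sequence. Over the 6 pairs of Zscan4 windows, identity ran from 94.7% to 99.6%.

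In the Usp17l family, capitals mark differences from the Usp17la window. Usp17la lies at chr7:104856766-104857015 on the plus strand, Usp17ld at chr7:103252506-103252755 on the minus strand and Usp17lc at chr7:103416446-103416695 on the plus strand.
Usp17la: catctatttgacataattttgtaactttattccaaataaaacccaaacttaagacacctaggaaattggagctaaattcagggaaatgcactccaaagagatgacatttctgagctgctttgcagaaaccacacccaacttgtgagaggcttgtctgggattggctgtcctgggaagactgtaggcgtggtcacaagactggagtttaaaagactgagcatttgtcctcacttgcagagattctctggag
Usp17ld: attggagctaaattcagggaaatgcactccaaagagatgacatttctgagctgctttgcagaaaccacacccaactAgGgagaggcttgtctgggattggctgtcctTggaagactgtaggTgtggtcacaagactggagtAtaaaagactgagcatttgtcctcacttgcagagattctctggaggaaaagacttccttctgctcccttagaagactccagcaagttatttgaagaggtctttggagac
Usp17lc: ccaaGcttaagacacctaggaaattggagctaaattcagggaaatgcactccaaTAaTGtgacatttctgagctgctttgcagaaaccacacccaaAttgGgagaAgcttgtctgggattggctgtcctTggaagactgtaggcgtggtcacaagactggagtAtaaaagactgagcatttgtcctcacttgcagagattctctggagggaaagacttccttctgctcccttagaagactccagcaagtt

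The Usp17ld window had 5 mismatches to that of Usp17la over 186 aligned positions, and the Usp17lc window 10 over 208. Over the 6 pairs of Usp17l windows identity ran from 85.5% to 97.3%. The Obox windows were mixed, with Obox1 and Obox2 identical over 153 aligned positions and Obox2 and Obox3 at 54.9%. Among the PRAME-related genes the likest pair was Pramel4 and Pramel5 at 90.2%. Pairs from different families, 142 of 212 of which aligned over at least 150 positions, had a median of 54.1%, given for scale.

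RefSeq lists more copies than the screen's entries name. It gives 9 Zscan4 loci, 4 of them protein-coding and 5 pseudogenes, and 5 have an entry here, among them Zscan4e, which this annotation calls a pseudogene. Of 6 Usp17l loci 5 have an entry, of 8 Tdpoz loci 7, of 53 Obox loci, 47 of them pseudogenes, 6, and of 48 loci now named Pramel 29. The Zscan4 members span 501.6 kb of chromosome 7, from 10900740 to 11402318, and the Obox members lie on the same chromosome from 15388851 to 15839679. The Usp17l members lie farther along it, from 103250086 to 104862667, and the Tdpoz members fill 175.6 kb of chromosome 3, from 93651542 to 93827117. All 5 Pramef genes lie on chromosome 4 from 143412155 to 144408467, beside Pramel1, Pramel4 and Pramel5, while Pramel6 and Pramel7 are neighbours on chromosome 2 and Pramel3 is on X.

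Guide numbers differed between the families. Per the authors' deposited table, 6 guides were held by 19 of the 30 members (63.3%), against 79.8% of all genes, and 3 or fewer by 5 members (16.7%), against 1.75%. No Zscan4 gene had 6 guides: Zscan4b and Zscan4d had 5, Zscan4c had 4, and Zscan4e and Zscan4f had 1 each per the authors' deposited table. Pramel4 also had 1 guide, and Usp17le and Pramel3 had 3 per the authors' deposited table. All Tdpoz and Pramef genes had 6, as did 4 of 5 Obox, 4 of 6 Pramel and 2 of 5 Usp17l genes per the authors' deposited table.

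Promoter likeness and guide number went together as a description across genes, which are not independent replicates. A window was counted as having a like one elsewhere if another gene's window shared at least 50% of its 12-base stretches. Of the 24 members with a RefSeq window, 16 had such a partner, and 7 of these 16 (43.8%) had 6 guides per the authors' deposited table. All 8 members without a partner had 6 guides there. These 8 are not all without a close relative. They include Usp17lb, whose window was 91.2% identical to that of Usp17ld, and Pramel7, at 81.0% to that of Pramef17. Pramel4 and Pramel5, at 90.2%, counted as partners, so the cutoff divides copies of similar likeness. Over all genes with a window, 44.4% of the 721 with a partner and 81.6% of the 15446 without one had 6 guides per the authors' deposited table. The share with 6 guides was thus about the same in members with a partner as in all genes with one.

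**Figure D1:**
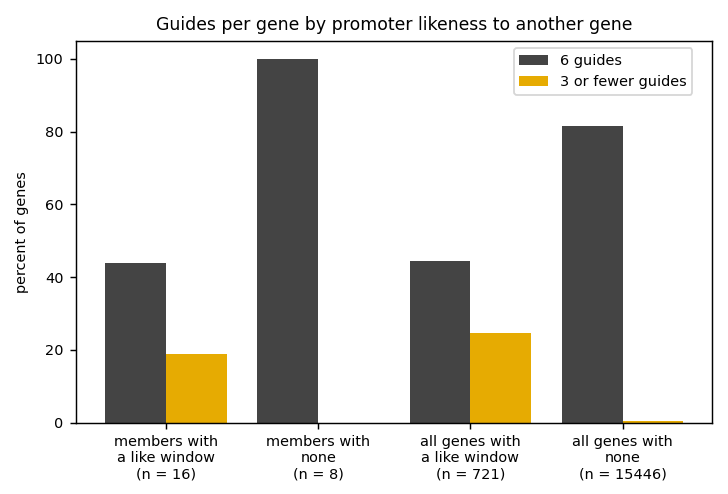
Percent of genes (vertical axis, from 0) with 6 guides (dark bars) and with 3 or fewer guides (yellow bars), for members with a like promoter window elsewhere, members with none, all genes with a like window and all genes with none. The share with 6 guides is 43.8% in members with a like window and 44.4% in all genes with one, against 100% of the 8 members and 81.6% of all genes with none. A like window shares at least 50% of the 12-base stretches. Usp17lb counts as having none, though its window is 91.2% identical to that of Usp17ld.

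Gene values scattered more widely where there were fewer guides. The middle 90% of genes ran from -2.23 to 1.81 for 1 guide, from -1.23 to 0.74 for 3 guides and from -0.84 to 0.64 for 6 guides per the authors' deposited table. Of the 30 members 6 lay outside the range of genes with as many guides, or 20.0%, where 10% of genes do by construction. These were Zscan4f, Usp17le and Usp17la below it and Obox2, Tdpoz1 and Pramef6 above it per the authors' deposited table. No test was made of this count, since members may share targets and were picked by name with earlier results known.

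**Figure D2:**
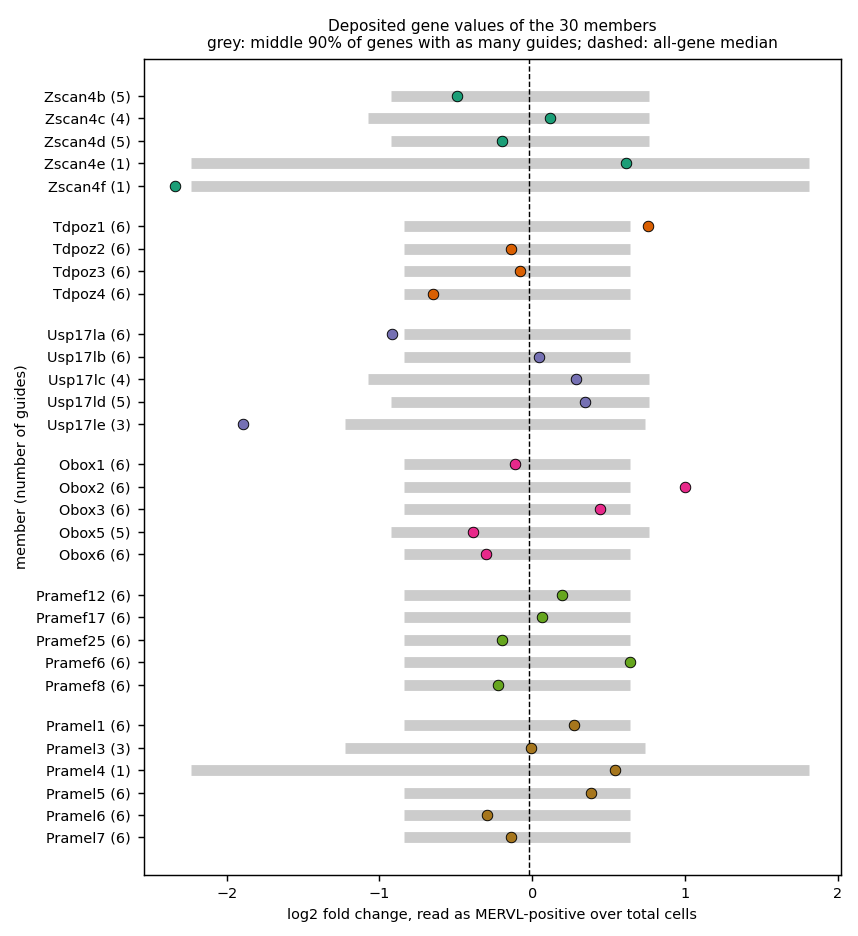
Log2 fold change of each of the 30 members (points, horizontal axis), grouped by family from Zscan4 at the top to Pramel at the bottom, with the number of guides in brackets. Grey bars hold the middle 90% of genes with as many guides and the dashed line is the median of all genes, -0.021. Usp17le at -1.89 and Obox2 at 1.00 lie outside their grey bars, and Zscan4f at -2.34 rests on 1 guide.

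Zscan4 genes encode SCAN-domain zinc finger proteins that mark the 2-cell-like state and act on telomeres in embryonic stem cells. Zscan4c, known as the main copy of embryonic stem cells, stood at a log2 fold change of 0.12 per the authors' deposited table, with 2 of its 4 guides up and 2 down. Zscan4d, known as the main copy of the 2-cell embryo, had a value of -0.20 with 2 of its 5 guides up and 2 down per the authors' deposited table. Zscan4b had a value of -0.49 with 1 of its 5 guides up and 4 down per the authors' deposited table.

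None of these 3 copies left the middle 90% of genes with as many guides. Zscan4f and Zscan4e, each with a single guide, had values of -2.34 and 0.62 per the authors' deposited table. Those are the lowest and highest values of the family, and both rest on the fewest guides. Zscan4e had an enrichment p of 0.290 per the authors' deposited table. Single non-targeting guides ran from -4.57 to 3.29, with a standard deviation of 0.77, per the authors' deposited table. That range holds the values of Zscan4f and Zscan4e. Of the 94 genes with 1 guide, 4.26% had a value at or below that of Zscan4f. Zscan4f and Zscan4c, whose promoter windows differ by 1 base in the aligned stretch, had values of -2.34 and 0.12 per the authors' deposited table. Zscan4b and Zscan4d, whose windows are 97.2% identical, were both negative there, at -0.49 and -0.20.

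The lowest deposited p-values of the Zscan4 family were 0.194 for enrichment (Zscan4d) and 0.151 for depletion (Zscan4f) per the authors' deposited table. The family's median was -0.20 and its mean -0.46. Of its 16 guides 6 were up and 9 down per the authors' deposited table. Up and down mean past the authors' guide threshold, a loose one that 37.4% of guides over all genes passed upward and 38.0% downward per the authors' deposited table.

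Usp17l genes encode deubiquitinating enzymes of the DUB subfamily, whose first members were described as cytokine-induced genes of blood cells. Usp17le, also known as Dub3, on chromosome 7 from 104767961 to 104777470, stood at a log2 fold change of -1.89 per the authors' deposited table, a ratio of 0.269, with 3 of its 3 guides down. Its depletion p per the authors' deposited table was 0.0098, at a false discovery rate of 0.861 and rank 362. Of the 132 genes with 3 guides, 1.52% had a value as low or lower.

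Usp17la, also known as Dub1, on chromosome 7 from 104857016 to 104862667, stood at a log2 fold change of -0.92 per the authors' deposited table, a ratio of 0.528, with 4 of its 6 guides down and none up. Its depletion p per the authors' deposited table was 0.012, at a false discovery rate of 0.886 and rank 268. That rank is ahead of the 362 of Usp17le although the p is higher, so ranks need not follow p where guide numbers differ. Among genes with 6 guides, 3.85% were as low or lower. Usp17le and Usp17la are thus the 2 members of the family whose guides went down without one going up.

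Usp17lc, on chromosome 7 from 103416696 to 103419174, had a depletion p of 0.040 per the authors' deposited table, although its log2 fold change was 0.29 and 2 of its 4 guides were up and 1 down. Its false discovery rate for depletion was 0.975 at rank 998 per the authors' deposited table. MAGeCK ranks genes by their most extreme guides, so a p for depletion and a positive gene value can stand together, as in 90 of the 1034 genes (8.70%) past 0.05 for depletion per the authors' deposited table. Usp17ld, its neighbour, had a value of 0.35 with 3 of its 5 guides up, none down and an enrichment p of 0.218 per the authors' deposited table. Usp17lb, at 0.043 with 1 of its 6 guides up and 2 down per the authors' deposited table, lay closest to 0.

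The family was therefore split, with Usp17la and Usp17le low and the other 3 copies above 0. Its median was 0.043 and its mean -0.43, of opposite sign, so the family has no single direction. Usp17la and Usp17ld, whose promoter windows are 97.3% identical, had values of -0.92 and 0.35 per the authors' deposited table. Usp17lc and Usp17ld, whose windows are 96.1% identical, were both positive there, at 0.29 and 0.35. Of the 24 guides 6 (25.0%) were up and 10 (41.7%) down per the authors' deposited table, beside 37.4% and 38.0% over all genes. Between the outer Usp17l copies lie 77 other entries, 60 of them olfactory receptor genes, with a median of 0.083 per the authors' deposited table. Of these 77, 4 passed an enrichment p of 0.05 (5.19%) and 2 a depletion p of 0.05 (2.60%) per the authors' deposited table, against 5.02% and 5.07% of all genes.

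**Figure D3:**
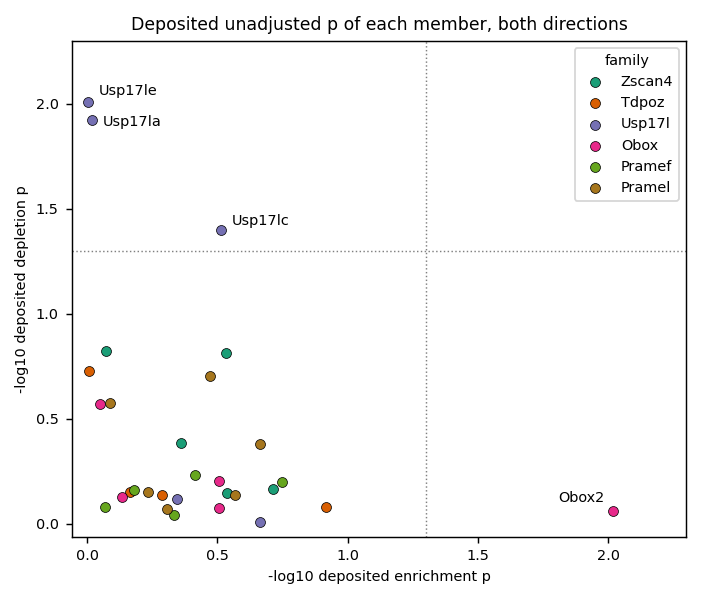
Deposited unadjusted p-values of the 30 members on a minus log10 scale, for enrichment (horizontal axis) and depletion (vertical axis), with colours for the 6 families and dotted lines at the 0.05 threshold. Usp17le, Usp17la and Usp17lc lie above the horizontal line, Obox2 lies right of the vertical line and the other members lie below both.

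Obox genes encode oocyte-specific homeobox transcription factors, reported to act redundantly in activating the embryonic genome of the mouse. Obox2, on chromosome 7 from 15388851 to 15398545, stood at a log2 fold change of 1.00 per the authors' deposited table, a ratio of 2.00, with 3 of its 6 guides up and 1 down. Its enrichment p per the authors' deposited table was 0.00962, at a false discovery rate of 0.949 and rank 206. Among genes with 6 guides, 99.4% had a value as high or lower.

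Obox3, a member transcribed from the embryo's own genome, had a value of 0.44 with 4 of its 6 guides up and 2 down per the authors' deposited table. Obox1 had a value of -0.11 with 3 of its 6 guides up and 3 down per the authors' deposited table. Obox5, a maternal member, had a value of -0.38 with 2 of its 5 guides up and 2 down and a depletion p of 0.746 per the authors' deposited table.

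Obox6 had a value of -0.30 with 1 of its 6 guides up and 3 down per the authors' deposited table. Obox2 thus stood apart from the other 4, which ran from -0.38 to 0.44. Obox1, with a promoter identical to that of Obox2 over 153 positions, lay at -0.11 where Obox2 lay at 1.00 per the authors' deposited table. The family's median was -0.11 and its mean 0.13, of opposite sign. Of its 29 guides 13 (44.8%) were up and 11 (37.9%) down per the authors' deposited table.

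Tdpoz genes encode proteins with a TRAF (MATH) domain and a POZ domain, related to the ubiquitin ligase adaptor Spop, and are transcribed in the egg and early embryo. Tdpoz1 stood at a log2 fold change of 0.76 per the authors' deposited table, with 4 of its 6 guides up, 1 down and an enrichment p of 0.121. Tdpoz4 had the opposite pattern, a value of -0.65 with no guide up, 4 of 6 down and a depletion p of 0.187 per the authors' deposited table. Tdpoz2 and Tdpoz3 lay between them at -0.14 and -0.081 per the authors' deposited table, with 2 of the 6 guides of each down.

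No Tdpoz gene had an unadjusted p under 0.05 in either direction, and the 2 copies with the most guides on one side went opposite ways. The family's median was -0.11. Of its 24 guides 7 (29.2%) were up and 9 (37.5%) down per the authors' deposited table.

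Pramef and Pramel genes encode leucine-rich repeat proteins related to the human cancer-testis antigen PRAME, several of which act as substrate receptors of ubiquitin ligases. Pramel7, of the inner cell mass and of naive embryonic stem cells, where it promotes loss of the DNA methylation factor Uhrf1, stood at a log2 fold change of -0.14 per the authors' deposited table, with 2 of its 6 guides up and 3 down. Pramel6, its neighbour on chromosome 2, had a value of -0.30 with 2 of its 6 guides up, 4 down and a depletion p of 0.264 per the authors' deposited table. Of all genes with 6 guides, 39.1% had a value at or below that of Pramel7 and 26.8% one at or below that of Pramel6.

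Pramel5 and Pramel1, on chromosome 4, had values of 0.38 and 0.27 per the authors' deposited table, with 3 of the 6 guides of each up and 1 down. Pramel4, with 1 guide, had a value of 0.54 and an enrichment p of 0.271 per the authors' deposited table, the highest value of the Pramel genes. Pramel3, on X, had a value of -0.0088 with 1 of its 3 guides up and none down per the authors' deposited table. The 6 Pramel genes had a standard deviation of 0.32 between genes, where the 5 Zscan4 genes had 1.13 and all genes 0.48. The Zscan4 value rests on the single guide of Zscan4f, and without that gene, left out after its value was seen, the other 4 Zscan4 genes had 0.47.

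Of the Pramef genes, Pramef6, now Pramel11, had the highest value, 0.64, with 4 of its 6 guides up and 2 down and an enrichment p of 0.179 per the authors' deposited table. Pramef8, now Pramel12, had the lowest, -0.22, with 2 of its 6 guides up, 3 down and a depletion p of 0.585 per the authors' deposited table. Pramef12, now Pramel13, a gene of spermatogonial stem cells, had a value of 0.20 with 3 of its 6 guides up and 1 down per the authors' deposited table.

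Pramef17, now Pramel14, and Pramef25, now Pramel16, lay at 0.064 and -0.20 per the authors' deposited table. In the direction of their values, the 10 members at the ends of the 6 families that missed 0.05 had false discovery rates from 0.993 (Zscan4f) to 0.999 (Tdpoz4, Obox5, Pramef8 and Pramel6) per the authors' deposited table. None of the 11 Pramef and Pramel genes had an unadjusted p under 0.05 in either direction. Their median was 0.064, with 6 genes above 0 and 5 below. Of their 58 guides 23 (39.7%) were up and 18 (31.0%) down per the authors' deposited table.

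By the authors' loose guide threshold, most members had guides both up and down, as most genes did. With a threshold this loose, the count does not measure disagreement between the guides of a gene. Of the 27 members with 2 or more guides, 22 (81.5%) had guides both up and down per the authors' deposited table, against 86.0% of all genes with 2 or more guides. The exceptions with no guide up were Usp17le, Usp17la and Tdpoz4, and those with no guide down were Usp17ld and Pramel3 per the authors' deposited table. Over all members 55 of 151 guides (36.4%) were up and 57 (37.7%) down per the authors' deposited table, near the 37.4% and 38.0% of all genes.

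**Figure D4:**
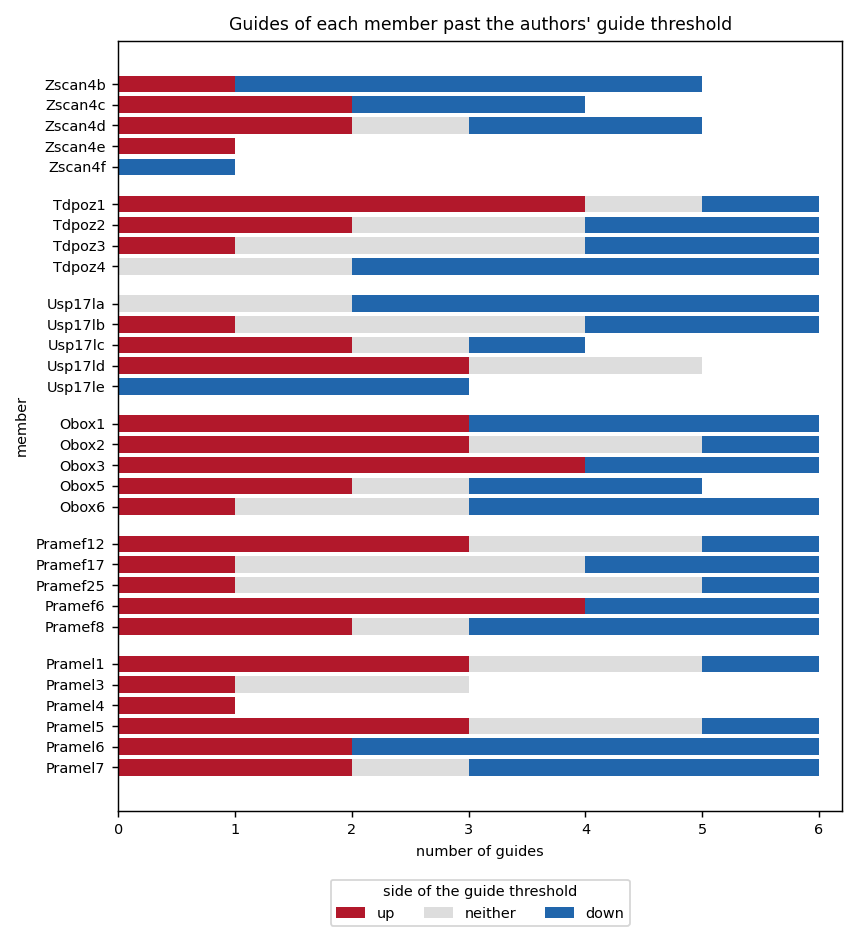
Number of guides (horizontal axis, from 0) of each of the 30 members that were up (red), down (blue) or on neither side (grey) of the authors' guide threshold. Usp17le has all 3 guides down, Usp17la and Tdpoz4 have 4 of 6 down and none up, and most other members hold both colours.

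Further copies of the same families are entered under older names that RefSeq now gives as Pramel, Tdpoz or Obox, and were added after the values of the 30 members were seen. There were 22, with a median of -0.041 and none past a depletion p of 0.05 per the authors' deposited table. The 2 past an enrichment p of 0.05 are PRAME-related genes of chromosome 4. Over all genes, 5.02% passed 0.05 for enrichment and 5.07% for depletion. Gm13128, now Pramel30, had a value of 0.95 with 4 of its 6 guides up and none down, an enrichment p of 0.0401 and a false discovery rate at 0.985 per the authors' deposited table. Gm13023, now Pramel25, had a value of 1.12 with 3 of its 5 guides up and none down per the authors' deposited table. Its enrichment p there was 0.0401, at a false discovery rate of 0.985.

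Tdpoz9, entered as Gm9125, had a value of -0.67 with 4 of its 6 guides down, and Obox7, entered as Gm4745, one of -0.46 with 4 of 6 down per the authors' deposited table. Counted with these copies, 3 of 52 genes passed 0.05 for enrichment and 3 for depletion per the authors' deposited table, and the median stayed at -0.045. The shares over all genes were 5.02% for enrichment and 5.07% for depletion. Among 11 further PRAME-family entries of a list of 19 older names, some of which are copies just described, Oog4 had a value of 0.80 with 5 of its 6 guides up and Oog3 one of -1.19 with 5 of 6 down per the authors' deposited table. Both are oocyte-expressed PRAME-family genes, and their unadjusted p-values were 0.0285 for enrichment of Oog4 and 0.0267 for depletion of Oog3 per the authors' deposited table. The false discovery rates there were 0.985 for Oog4 and 0.961 for Oog3. These neighbours in name again went opposite ways.

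Other genes of the 2-cell program were set beside these families from a list of 20 names, 17 of which have an entry. Dux, the homeobox factor that switches on MERVL and Zscan4, stood at a log2 fold change of -1.41 with 3 of its 3 guides down. Its depletion p per the authors' deposited table was 0.00419, at a false discovery rate of 0.846. Dux was the 1 gene of the 17 past an unadjusted p of 0.05 in either direction. Over all genes, 5.02% passed for enrichment and 5.07% for depletion. Dppa4 and Dppa2, which act on the Dux locus, had values of -0.78 and -0.24 per the authors' deposited table. Tcstv3, another multicopy gene of the 2-cell stage, had a value of 1.01 with 4 of its 5 guides up and an enrichment p of 0.0574 per the authors' deposited table.

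The median of these 17 genes was -0.18, with 12 below 0, beside -0.045 for the 30 members and -0.021 for all genes per the authors' deposited table. Of the 17 genes 29.4% lay above 0, beside 48.0% of all genes, and 4 had 3 or fewer guides. In a further list of 9 relatives of the families, such as the Spop gene, 1 gene passed 0.05 for depletion, as did 5.07% of all genes. Spop had a depletion p of 0.036 and a log2 fold change of 0.26 per the authors' deposited table, again of opposite sign.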

How the data were processed

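The file is 1 table of gene values with headers as written by MAGeCK, a tool for pooled screens that the submitters' processing notes list together with mm10. Its version and settings, the normalization and the numerator are not stated in those notes or headers. Per the file headers, the authors deposited the number of guides, a log2 fold change and, for either direction, a score, a p-value, a false discovery rate and how many guides passed a guide threshold. The scores were not used. No count model could be fitted, and the deposited p-values were taken as they stand, at a threshold of 0.05. The titles name no separate cultures, so these p-values may measure technical spread alone.

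Members, lists and tests were chosen with earlier results of these data known. Names, positions and promoters came from RefSeq tables of GRCm38.p6. Of 20380 genes, 20273 matched. Windows were aligned with free end gaps in Biopython 1.88 and checked on simulated windows. Full statistics were given for members with an unadjusted p under 0.05, and a p and false discovery rate for the highest and lowest value of each family, and of the other lists for Dux and genes with such a p. Copies without an entry here were not analysed. Alternatives changed the guide minimum, threshold, summary, centring and membership.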

Additional observations from a re-analysis of the deposited data

How the results depend on the processing

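A family median counted as moved if it shifted by more than the standard deviation of single non-targeting guides divided by the square root of the family's guide number. Counts of members past an unadjusted p of 0.05 were 1 for enrichment and 3 for depletion. With the false discovery rate they were 0 and 0, and with a p threshold of 0.01 the depletion count was 1. With entries under older names the enrichment count was 2, and with copies by current RefSeq name, added after seeing the data, it was 3. The median over all members moved from -0.045 to -0.11 with entries under older names. Without the Tdpoz family it was 0.017, of opposite sign but not counted as moved. With means in place of medians, the Zscan4 family stood at -0.46, Usp17l at -0.43 and Obox at 0.13, and weighting by guides gave -0.34 for Usp17l and 0.15 for Obox. The signs of the Usp17l and Obox families thus depend on the summary. Leaving out members with 3 or fewer guides and centring on non-targeting guides or on all genes moved no median past this limit. That first alternative left 2 depletion calls, Usp17la and Usp17lc. No paired analysis was possible because the deposited table has no value per library, and the fits on guide counts, with a library left out or other normalization, were not run for the same reason. The sort yielded 3.84 cells for each guide of the library, so a knockout with no call may still have had an effect.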
